A study of Rattus norvegicus with 6 samples.

Results

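The genes described here were the 9 aquaporin genes Aqp1, Aqp2, Aqp3, Aqp4, Aqp5, Aqp6, Aqp7, Aqp8 and Aqp11 and the gene of the vasopressin V2 receptor, Avpr2. They were taken by symbol and made up 10 of the 17051 genes measured in rat kidney. They were selected on the counts of these same rats, with the lower Aqp4 of the HD group beside the other aquaporins already known, so the diet values of the 10 genes are given as a description, with no test. Kidney RNA of 6 male Sprague Dawley rats was sequenced, with a library for each rat. The AL group (rats 61, 71 and 88) ate standard laboratory chow ad libitum. The HD group (rats 64, 67 and 69) ate a hyperammonemic diet, in which an amino acid mixture composed like haemoglobin was added to the chow, daily at 3 g for each kg of the animal. Either diet was given for 7 days. The rats of both groups were otherwise untreated, and their age is not given in the sources used here. For its PCR measurements the study took RNA from a halved kidney, and for sequencing the part of the kidney is not stated. The HD group is a model of dietary ammonia load in rats with a healthy liver, not of liver disease. The study compared the groups to find how the kidney responds to this load.

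Aquaporins are membrane channels for water, and some of them also carry glycerol. In the principal cells of the collecting duct, vasopressin binds the V2 receptor on the basolateral side, cyclic AMP rises, and vesicles holding AQP2 fuse with the apical membrane, so that water enters the cell from the urine. The water leaves through AQP3 and AQP4 in the basolateral membrane, and in the rat kidney AQP4 is best known from the inner medullary part of the duct. AQP1 carries the bulk of water reabsorption in the proximal tubule and the thin descending limb. AQP7 takes up glycerol in the late proximal tubule, AQP11 lies inside proximal tubule cells, and AQP6 lies in vesicles of the acid-secreting intercalated cells.

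Total estimated counts ran from 12499945 to 30466461 per rat, the 2 deepest libraries being those of HD rats 67 and 69. A gene was tested when at least 1 rat had 30 counts or more, which kept 11553 genes, among them all 10 genes described here. Levels are given as CPM, the counts of a gene scaled to a common library size with TMM factors, as mean ± SD of 3 rats. Differences are log2 fold changes of the HD over the AL group with their standard error (SE). In the quasi-likelihood test of edgeR, adjusted after Benjamini-Hochberg with a threshold of 0.05, 0 of 11553 genes differed between the diets (0.0%), 1224 (10.6%) had an unadjusted *P* under 0.05, and DESeq2 called 182 (1.58%). Nothing in the labels says more of the 6 samples than that they were separate rats, so these tests measure the spread between these animals. In bulk tissue, fewer cells of a type and less RNA per cell cannot be told apart.

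Per unit of transcript length, the 10 genes covered more than 3 orders of magnitude. Mean TPM, a share of all transcripts corrected for length, over the 6 rats were 2452 ± 271 (SD, n = 6) for Aqp1, 823 ± 145 for Aqp2, 290.4 ± 65.4 for Aqp3 and 198 ± 30.6 for Aqp7. Next came Aqp6 with 94.6 ± 31.1 TPM, Aqp4 with 35.4 ± 16.4, Avpr2 with 33.1 ± 10.8 and Aqp11 with 26.5 ± 9.45. Aqp8 (2.45 ± 1.13 TPM) and Aqp5 (0.743 ± 0.432 TPM), a channel known from glands and lung, stood at the bottom. Aqp1 alone held 62.0% of the summed TPM of the 10 genes and Aqp2 held 20.8%, against 0.896% for Aqp4.

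In 5 of the 9 pairs of neighbours in this order, the higher gene was above the lower one in all 6 rats. These were Aqp1 over Aqp2, Aqp2 over Aqp3, Aqp7 over Aqp6, Aqp6 over Aqp4 and Aqp11 over Aqp8. Each had *P* = 0.03125 in an exact two-sided sign-flip permutation test of the 6 rats, the smallest value 6 rats can give, and 0.0563 after Benjamini-Hochberg adjustment over the 9 pairs, so no pair passed 0.05 after adjustment. The neighbours were set by the mean levels of these same rats, so the test gives the order no independent support. Aqp3 was above Aqp7 in 5 of 6 rats (exact permutation *P* = 0.0625, adjusted 0.0938). Aqp4 and Avpr2 did not differ beyond their spread, with Aqp4 higher in 4 of 6 rats (exact permutation *P* = 0.813, adjusted 0.813). Avpr2 and Aqp11 were likewise not separated (4 of 6 rats, exact permutation *P* = 0.406, adjusted 0.457), nor were Aqp8 and Aqp5 (5 of 6 rats, exact permutation *P* = 0.0938, adjusted 0.121). Within the AL group, all 9 neighbours kept this order in every rat, with Aqp4 at 48.4 ± 12.9 TPM, Avpr2 at 40.2 ± 10.7 and Aqp11 at 20.5 ± 0.595. In the HD group the mean TPM of these 3 genes stood the other way round, with Aqp11 at 32.5 ± 10.6, Avpr2 at 25.9 ± 4.90 and Aqp4 at 22.5 ± 2.31.

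In TMM-scaled CPM, Aqp4, Aqp3 and Avpr2 were lower in every HD rat than in any AL rat, Aqp1, Aqp7 and Aqp11 were higher, and the groups overlapped for Aqp2, Aqp5, Aqp6 and Aqp8. With CPM scaled by library size alone, and with TPM, the groups also overlapped for Avpr2 and Aqp1 and stayed apart for Aqp4, Aqp3, Aqp7 and Aqp11, a comparison added after the data were seen. Of all tested genes, 7.01% had non-overlapping groups with HD lower and 7.25% with HD higher. None of the 10 passed the adjusted edgeR threshold (background 0.0%), and 5 of the 10 had an unadjusted *P* under 0.05 (background 10.6%), 3 of them lower (background 5.94%) and 2 higher (background 4.66%). DESeq2 called 1 of the 10, Aqp4, which was lower (background 1.58%, and 0.77% for lower genes). The count of 5 was 2 without rat 71, rat 88 or rat 67 and 3 without rat 64. Nothing is read from these counts, since the contrast was used in choosing the genes. The median log2 fold change of the 10 genes was -0.13, beside 0.0067 for all tested genes.

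**Figure D1:**
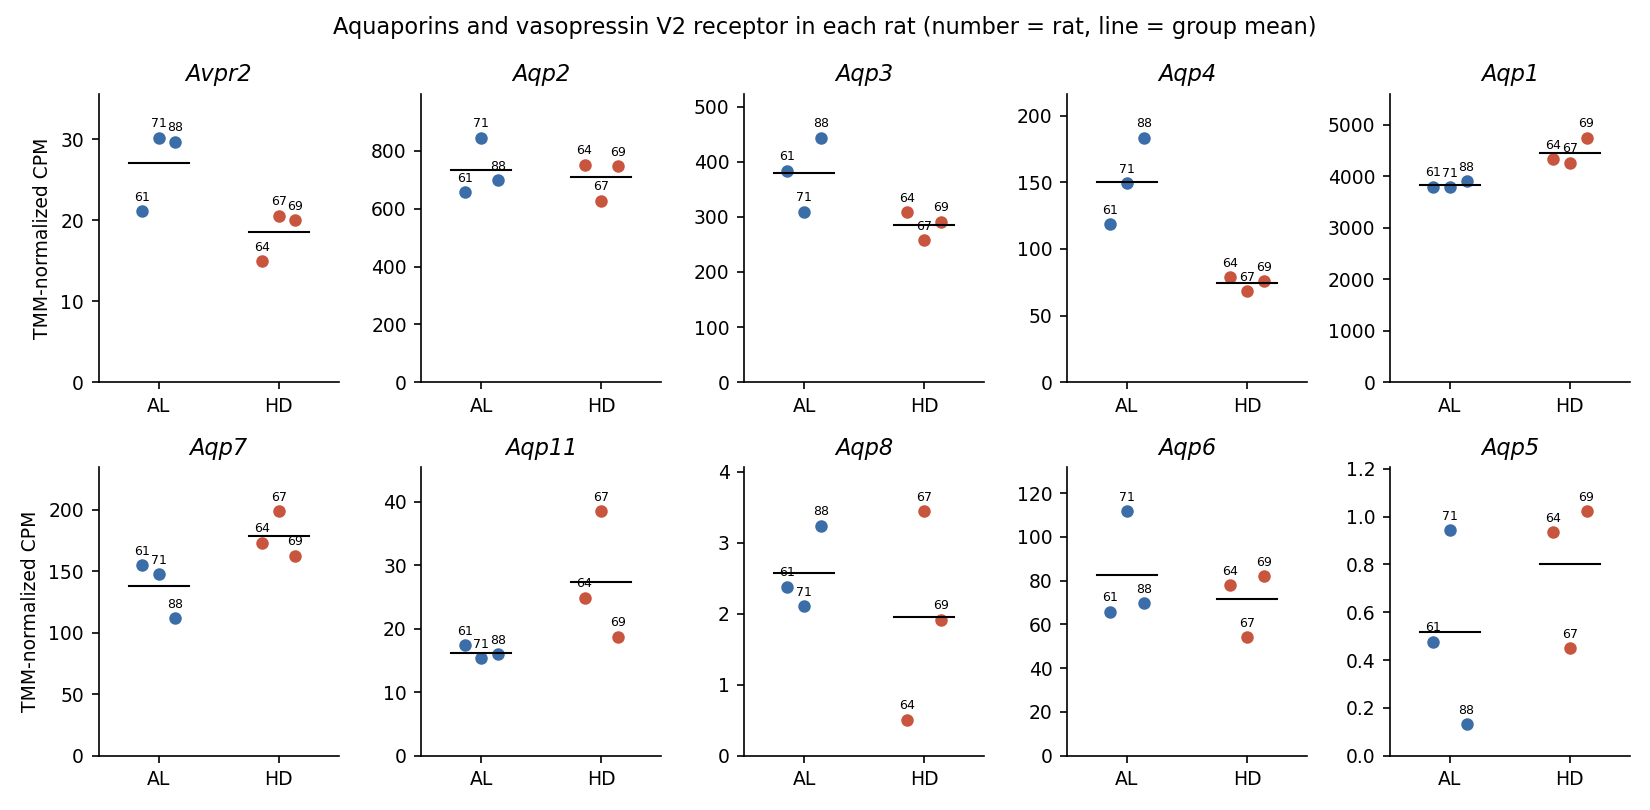
CPM (linear axis) of the 10 genes in each of the 6 kidneys, with a point for each rat and a bar at the mean of each diet group. With this TMM scaling, the HD rats lie below all AL rats for Aqp4, Aqp3 and Avpr2 and above them for Aqp1, Aqp7 and Aqp11, but Avpr2 and Aqp1 overlap in TPM and with library size alone.

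The V2 receptor gene Avpr2 had 21.1, 30.2 and 29.7 CPM in AL rats 61, 71 and 88, and 14.9, 20.5 and 20.0 CPM in HD rats 64, 67 and 69. The groups were close at the edge, AL rat 61 lying just above HD rat 67, and in TPM they overlapped, with 28.1 in AL rat 61 and 29.8 in HD rat 69. The means were 27.0 ± 5.11 and 18.5 ± 3.08 CPM, a log2 fold change of -0.54 (SE 0.19).

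The receptor's end target in the principal cell, Aqp2, had 658, 846 and 698 CPM in the AL rats and 752, 628 and 747 CPM in the HD rats. The groups overlapped, with the highest value in an AL rat and the lowest in an HD rat. The means were 734 ± 99.4 and 709 ± 70.3 CPM, and the log2 fold change of -0.05 (SE 0.15) was smaller than its error. It changed sign when AL rat 71 (0.06) or HD rat 67 (0.03) was left out.

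Aqp3, the basolateral channel for water and glycerol, had 384, 309 and 444 CPM in the AL rats and 308, 258 and 291 CPM in the HD rats. The lowest AL rat and the highest HD rat were almost level. The means were 379 ± 67.5 and 286 ± 25.6 CPM, a log2 fold change of -0.41 (SE 0.16).

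Aqp4, the other basolateral water channel, had 118, 149.6 and 184 CPM in the AL rats and 78.6, 68.5 and 75.7 CPM in the HD rats. The HD rats lay close together, and all were well under the lowest AL rat, whereas the AL rats were spread widely. The means were 150.6 ± 32.7 and 74.3 ± 5.23 CPM, 2.03-fold higher in the AL group, a log2 fold change of -1.02 (SE 0.17). It was the largest decrease among the 10 genes, and it stayed between -1.17 and -0.84 when each rat was left out in turn. The smallest of these differences was seen without AL rat 88, which had the highest Aqp4 level.

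Among the proximal tubule channels, Aqp1 had 3800, 3791 and 3910 CPM in the AL rats and 4333, 4266 and 4754 CPM in the HD rats. On this scale all HD rats were above the AL rats, whereas in TPM the groups overlapped, with 2084, 2497 and 2405 in the AL rats and 2441, 2363 and 2920 in the HD rats. The means were 3833 ± 66.1 and 4451 ± 264 CPM, a log2 fold change of 0.22 (SE 0.13).

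Aqp7, the glycerol channel, had 155, 148 and 112 CPM in the AL rats and 173, 199 and 163 CPM in the HD rats. The groups did not overlap, although AL rat 61 came close to HD rat 69. The means were 138 ± 23.2 and 178 ± 18.7 CPM, a log2 fold change of 0.37 (SE 0.15).

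Aqp11 had 17.4, 15.4 and 16.0 CPM in the AL rats and 24.9, 38.5 and 18.7 CPM in the HD rats. All 3 AL rats were alike, and the HD mean rested largely on rat 67. The means were 16.2 ± 1.05 and 27.4 ± 10.1 CPM, a log2 fold change of 0.75 (SE 0.26), which was 0.42 without rat 67.

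Aqp6, the intercalated cell channel, had 65.8, 112 and 69.6 CPM in the AL rats and 78.0, 54.3 and 81.9 CPM in the HD rats. AL rat 71 stood above all other rats, and the groups overlapped. The log2 fold change was -0.21 (SE 0.24), and it was 0.08 without AL rat 71.

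Aqp8, a channel of intracellular membranes, had between 6 and 69 counts in a rat, the lowest in HD rat 64 (0.509 CPM) and the highest in HD rat 67 (3.45 CPM), with the AL rats between 2.11 and 3.24 CPM. Aqp5 had between 2 and 32 counts in a rat and at most 1.02 CPM. Their log2 fold changes of -0.36 (SE 0.59) and 0.60 (SE 0.71) were smaller than their errors, so that a difference was not detectable at this depth in either gene.

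**Figure D2:**
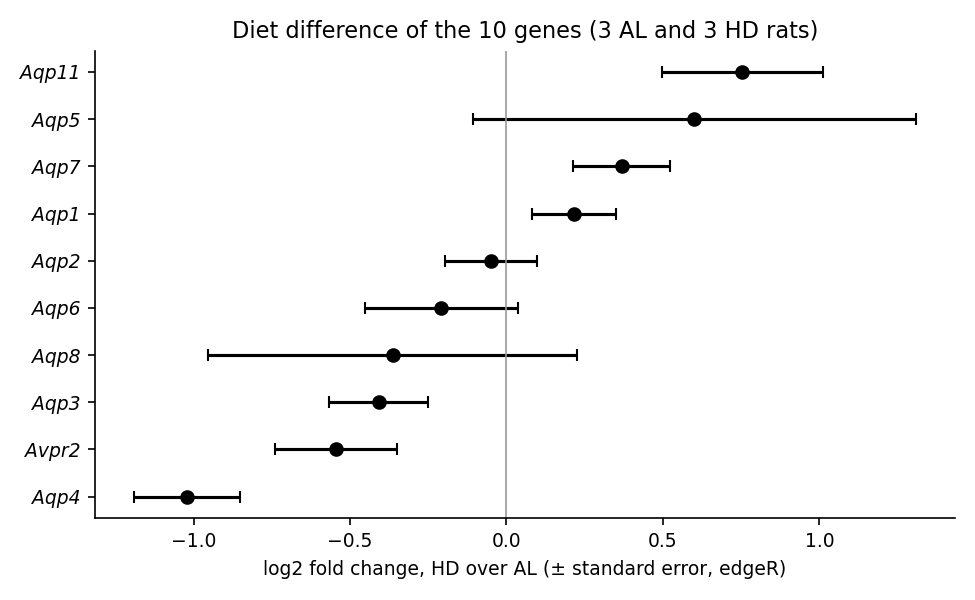
Log2 fold change of the HD over the AL group for the 10 genes (points) with the SE of the fit (bars). Aqp4 lies lowest at -1.02, Aqp2 lies near 0, and Aqp5 and Aqp8 have the widest bars.

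Within each rat, Aqp4 was set against Aqp1, Aqp2, Aqp3 and Aqp11, and relative to each of these 4 channels it was lower in the HD group. The log2 ratio of Aqp4 to Aqp1 was -5.00, -4.66 and -4.41 in the AL rats and -5.79, -5.96 and -5.97 in the HD rats, a difference of -1.21 between the group means. The log2 ratio of Aqp4 to Aqp2 was -2.47, -2.50 and -1.93 in the AL rats and -3.26, -3.20 and -3.30 in the HD rats, a difference of -0.95. These ratios need no scaling between libraries, and the groups did not overlap for either of them.

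The log2 ratio to Aqp3, which lies in the same membrane, was -1.70, -1.05 and -1.27 in the AL rats and -1.97, -1.91 and -1.94 in the HD rats, a difference of -0.60. The ratio to Aqp11 differed by -1.69 on the log2 scale. Both also had groups that did not overlap. The ratio to Avpr2 differed by -0.46 and overlapped, since HD rat 64 (2.40) was above AL rat 71 (2.31). In these within-rat ratios, Aqp4 thus differed less from Avpr2 and Aqp3 than from Aqp2, Aqp1 and Aqp11.

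**Figure D3:**
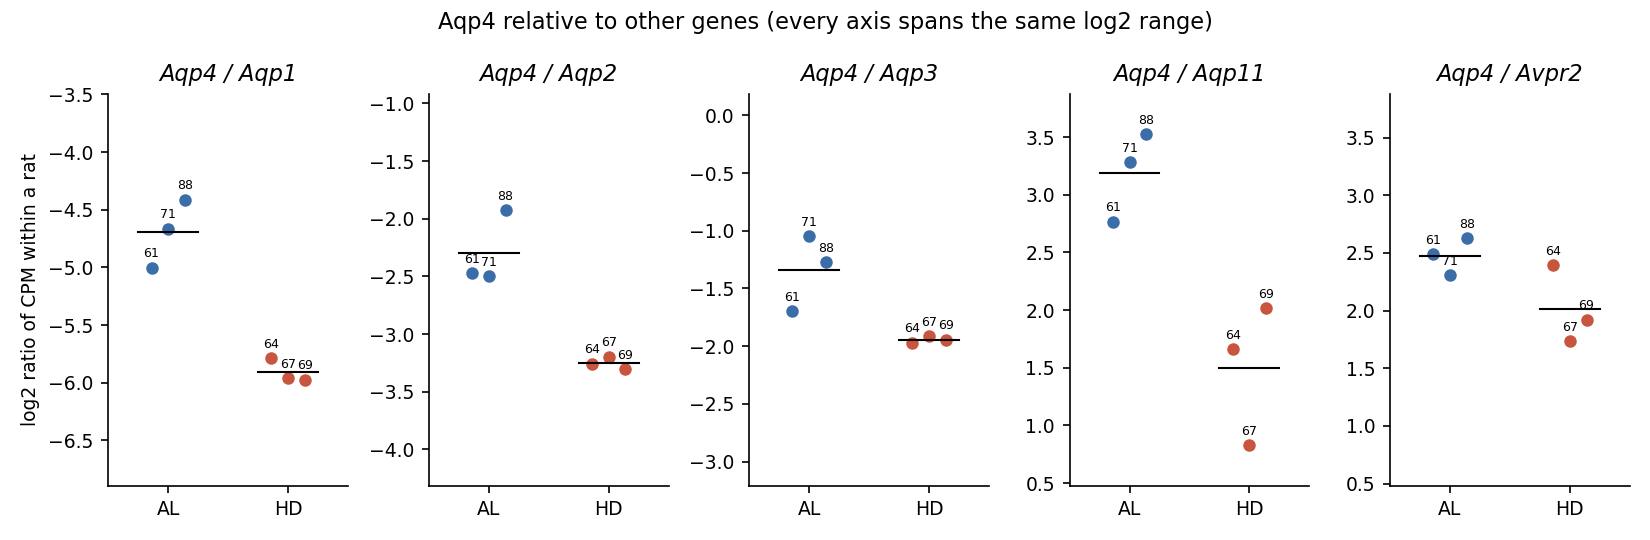
Log2 ratio of the Aqp4 CPM to the CPM of Aqp1, Aqp2, Aqp3, Aqp11 and Avpr2 within each rat, with a point for each rat and a bar at the group mean. The HD rats lie below the AL rats for the first 4 references, and the groups overlap for Avpr2.

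In the files' build rn5, Aqp4 lay on the minus strand of chromosome 18 from 6720759 to 6737507 and was the only one of the 10 genes with more than 1 transcript. It had 4 transcripts, from the combination of 2 first exons with an exon that was kept or skipped. The upstream first exon (6737410 to 6737507, 98 bases) began NM_012825 and NM_001270558, and the downstream first exon (6736486 to 6736591, 106 bases) began NM_001142366 and NM_001270559. The third exon (6732117 to 6732281, 165 bases) was kept in NM_012825 and NM_001142366 and skipped in the others. The last exon, 4251 bases long, was shared by all 4, so most reads of the gene could not tell them apart.

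Transcripts with the upstream first exon received 60.0%, 59.2% and 53.6% of the Aqp4 count in the AL rats and 43.6%, 76.4% and 70.0% in the HD rats. The mean shares were 57.6% ± 3.51 and 63.3% ± 17.4, a difference within the spread of the HD rats. In CPM, the upstream form had 71.1, 88.5 and 98.4 in the AL rats and 34.3, 52.3 and 53.0 in the HD rats. The downstream form had 47.3, 61.1 and 85.3 CPM in the AL rats and 44.3, 16.2 and 22.7 CPM in the HD rats. For both first exons the HD rats were below all AL rats.

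On its own, NM_012825 had a log2 fold change of -0.91 (SE 0.23), NM_001142366 of -0.94 (SE 0.65), NM_001270558 of -0.84 (SE 1.07) and NM_001270559 of -1.84 (SE 0.99). In HD rat 64 no count was assigned to either transcript that skips the third exon, whereas in the other 5 rats they received 33.6% to 56.0% of the Aqp4 count. The deposited intervals of the transcript estimates, rescaled here to TPM, were wide. NM_012825 in AL rat 61 had 10.5 TPM with an interval of 4.89 to 17.9, and NM_001270558 in rat 64 was listed at 0 with an interval reaching 4.79 TPM. The confidence level of these intervals is not given in the sources used here. The split between transcripts was thus much less certain than the gene total.

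**Figure D4:**
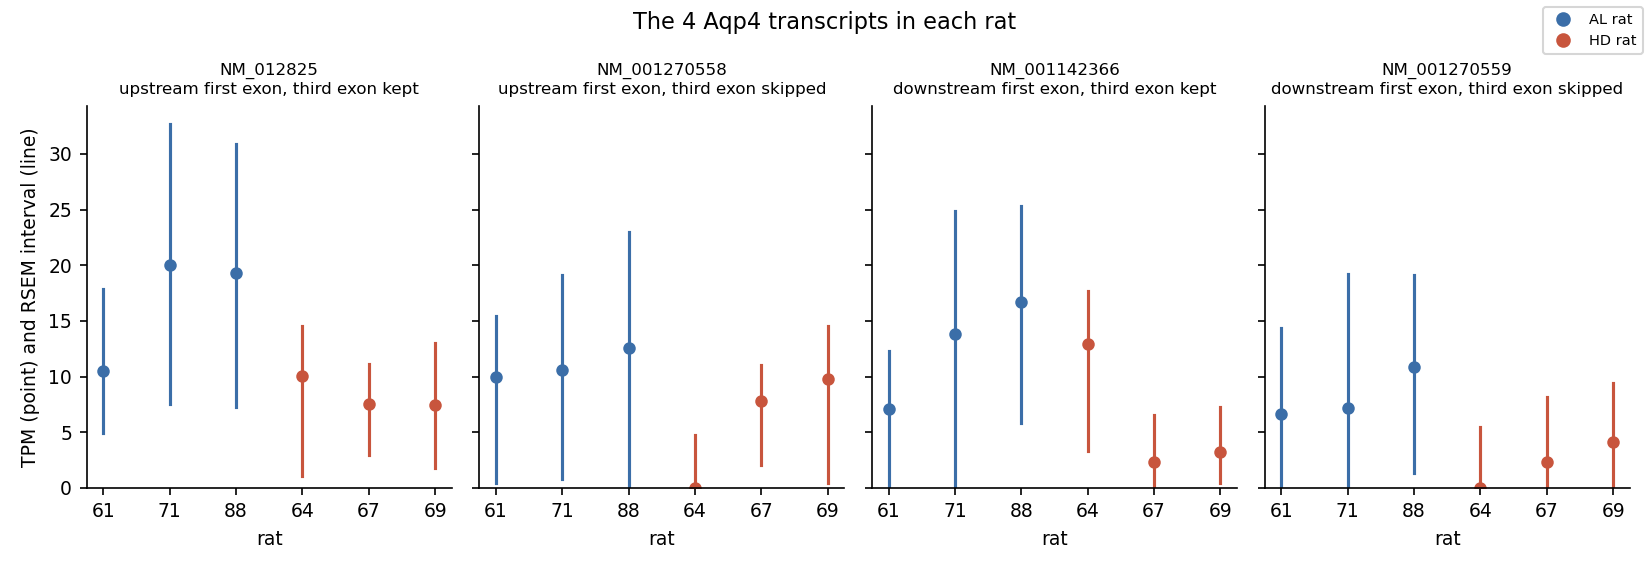
TPM of the 4 Aqp4 transcripts in each rat (points) with the deposited interval of the estimate, rescaled to TPM (bars). The intervals of the transcripts overlap in most rats, and both transcripts that skip the third exon are listed at 0 in HD rat 64.

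The 2 starts of Aqp4 lay 916 bases apart in rn5 and in the RefSeq build GRCr8. The 250 bases before each start of Aqp4, and those before the start of Aqp2, are shown because Aqp4 had the largest decrease and Aqp2 hardly differed in the same duct. RefSeq promoter windows were matched for 9 of the 10 genes, all but Aqp7, giving 10 windows. All were searched on both strands for CGTCA (reverse TGACG), the short form of the cyclic AMP response element, for its full form TGACGTCA, and for TGGAAA (reverse TTTCCA), the core of the element bound by the osmotic factor NFAT5. Any full form also holds the short form. These motifs were chosen after the values of the genes had been seen. Capitals mark the matches, and each sequence is from RefSeq, build GRCr8, read 5′ to 3′ on the strand of the gene.
Aqp2, plus strand, chr7:132590036-132590285: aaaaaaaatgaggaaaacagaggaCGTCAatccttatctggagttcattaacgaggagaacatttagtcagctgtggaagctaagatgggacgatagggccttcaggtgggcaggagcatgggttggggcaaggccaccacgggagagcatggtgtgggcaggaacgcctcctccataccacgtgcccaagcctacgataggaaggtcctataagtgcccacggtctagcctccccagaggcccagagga
Aqp4 upstream start, minus strand, chr18:6798843-6799092: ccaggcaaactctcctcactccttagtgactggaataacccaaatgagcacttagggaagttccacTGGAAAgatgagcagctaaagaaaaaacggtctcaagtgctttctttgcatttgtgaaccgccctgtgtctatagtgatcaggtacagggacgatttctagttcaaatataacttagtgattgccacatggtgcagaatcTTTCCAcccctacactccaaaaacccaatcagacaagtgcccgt
Aqp4 downstream start, minus strand, chr18:6797927-6798176: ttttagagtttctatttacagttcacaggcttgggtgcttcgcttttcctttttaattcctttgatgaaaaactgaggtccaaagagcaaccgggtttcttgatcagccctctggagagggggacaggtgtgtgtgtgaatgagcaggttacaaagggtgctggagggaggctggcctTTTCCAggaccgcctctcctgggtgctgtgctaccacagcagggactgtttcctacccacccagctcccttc

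CGTCA was present in 1 of the 10 windows, that of Aqp2, and in 18.2% of all 33469 RefSeq windows. The full TGACGTCA was in 0 of 10 windows and in 1.59% of all windows. TGGAAA was in 3 of 10 windows, those of Aqp6 and of both Aqp4 starts, and in 19.7% of all windows. A match describes these letters only, and the data hold no measurement of binding.

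The positions in the files gave 2 neighbourhoods. Aqp7 and Aqp3 lay on the minus strand of chromosome 5 with 52280 bases between them, and their log2 fold changes had opposite signs (0.37 and -0.41). Aqp2, Aqp5 and Aqp6 lay in this order on one strand, with gaps of 6405 and 6008 bases. Aqp2 and Aqp6 were abundant, whereas Aqp5 between them had 0.743 TPM. The files place these 3 genes on chromosome X and Avpr2 on chromosome 1, whereas RefSeq's GRCr8 table has them on 7 and X, so the chromosome names of the files were not used further. No exon of any of the 10 genes overlapped an exon of another gene in the files.

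The other genes of the pathway were read from the same fit across all genes. In each list below, 0 genes passed the adjusted edgeR threshold. The background for the list counts is 10.6% of all tested genes at an unadjusted *P* under 0.05 with edgeR and 1.58% called by DESeq2. Of 13 further vasopressin receptor and V2 signalling genes tested, 1 was higher and 1 lower at an unadjusted *P* under 0.05, DESeq2 called 0, and the median log2 fold change was 0.0015. The lower one was Adcy6, an adenylyl cyclase that makes cyclic AMP in the principal cell, with 178 ± 13.9 CPM (AL) and 142 ± 16.7 CPM (HD), a log2 fold change of -0.32 (SE 0.13, edgeR adjusted *P* = 0.441). The higher one was Prkar2a, a regulatory subunit of protein kinase A (0.84, SE 0.30, edgeR adjusted *P* = 0.409), whose groups overlapped. The V1b receptor gene Avpr1b had no count in any rat, where 3 counts would be 0.0985 to 0.240 CPM. Of 14 genes for trafficking and degradation of AQP2, 0 reached an unadjusted *P* under 0.05 with edgeR and DESeq2 called 0. Their log2 fold changes ran from -0.23 (Stx4) to 0.18 (Rab11fip2), around a median of 0.0053.

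Partners that anchor AQP4 at the membrane through the dystrophin complex numbered 5 tested, 2 higher and 3 lower, with a median of -0.15 on the log2 scale and 0 DESeq2 calls. The glycerol genes, which bear on Aqp3 and Aqp7, were higher in the HD group in 5 of 5, with a median of 0.54. The groups overlapped for Gk, Gpd2 and Lpl, and the log2 fold change of Lpl was 0.06 (SE 0.25). Gpd1, glycerol-3-phosphate dehydrogenase, had 259 ± 38.9 CPM (AL) and 376 ± 14.8 CPM (HD), a log2 fold change of 0.54 (SE 0.13, edgeR adjusted *P* = 0.379). It was the 1 gene of the list with an unadjusted *P* under 0.05 and the 1 gene called by DESeq2. Of the remaining aquaporin genes, Mip, known as the lens aquaporin, had 24.4 ± 3.04 and 22.7 ± 3.46 CPM (log2 fold change -0.10, SE 0.16). Aqp9 had at most 1 count in a rat, and Aqp12a had 0.

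For the tissue around the duct, 5 of the 6 inner medulla genes tested were lower in the HD group at an unadjusted *P* under 0.05 (background lower 5.94%). In this list 0 passed the adjusted edgeR threshold, and DESeq2 called 2 (background 1.58%). The median log2 fold change was -1.27. The count of 5 was 1 without rat 64, 2 without rat 67 or rat 88 and 3 without rat 61 or rat 71. Nfat5, the transcription factor of the response to high osmolality, had 203, 276 and 290.4 CPM in the AL rats and 98.0, 121 and 170.3 CPM in the HD rats (-0.98, SE 0.23, edgeR adjusted *P* = 0.368). Its groups did not overlap, like those of Aqp4, and its log2 fold change was -1.23 to -0.82 when each rat was left out in turn.

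Slc14a2, the urea transporter of the inner medullary duct, had 40.4, 145 and 122 CPM in the AL rats and 20.3, 26.6 and 67.1 CPM in the HD rats (-1.42, SE 0.57, edgeR adjusted *P* = 0.453). AL rat 61 lay within the HD range. Akr1b1, which makes the osmolyte sorbitol, had 23.3, 99.0 and 390.0 CPM in the AL rats and 23.3, 24.0 and 35.3 CPM in the HD rats. Its log2 fold change of -2.63 (SE 0.87, edgeR adjusted *P* = 0.406) was -1.14 without AL rat 88.

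The inositol transporter gene Slc5a3 was highest in a single AL rat, with 40.4 CPM in rat 61 against at most 9.13 in every other rat of either group (-2.37, SE 0.81, and -0.90 without rat 61). The betaine transporter gene Slc6a12 had -1.11 (SE 0.45, edgeR adjusted *P* = 0.456) and the taurine transporter gene Slc6a6 had -0.13 (SE 0.54). The summed level of the 6 genes was 330.7 to 855 CPM in the AL rats and 168 to 327 CPM in the HD rats. HD rat 69 was just under AL rat 61. In the AL group, the sum and Aqp4 were both lowest in rat 61 and highest in rat 88. In the HD group, rat 64 had the lowest sum but the highest Aqp4 (78.6 CPM). Rat 69 had the highest sum of that group, with Aqp4 at 75.7 CPM. Much of the summed level was Nfat5, with 203 to 290.4 CPM in the AL rats and 98.0 to 170.3 CPM in the HD rats. In AL rat 88, Akr1b1 held 390.0 CPM of it. The sums overlapped with library size alone and with TPM, HD rat 69 then lying above AL rat 61. The log2 ratio of Aqp4 to Nfat5 was -0.77 ± 0.11 (AL) and -0.77 ± 0.43 (HD), and that of Aqp4 to Slc14a2 was 0.73 ± 0.76 and 1.16 ± 0.91. These 2 ratios were chosen after the values had been seen. How much inner medulla each sample held was not measured, and its part in the Aqp4 values was not tested.

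**Figure D5:**
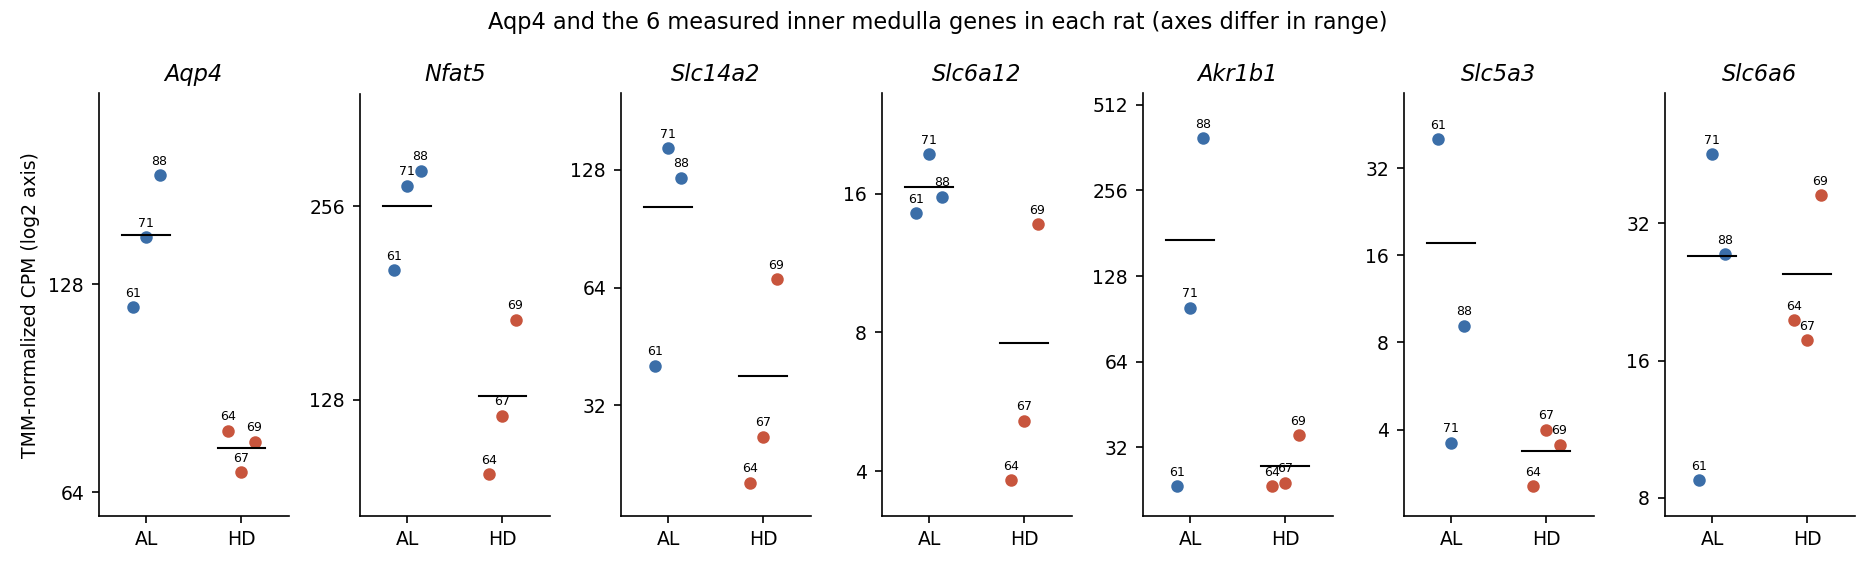
CPM (log axis) of Aqp4 and the 6 inner medulla genes in each rat, with a point for each rat and a bar at the group mean. With this TMM scaling, Nfat5 and Slc6a12 share with Aqp4 that the HD rats lie below all AL rats, although Slc6a12 overlaps in TPM and with library size alone. The groups overlap for Slc14a2, Akr1b1, Slc5a3 and Slc6a6, but not for Slc5a3 on the other 2 scales.

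Principal cell and collecting duct markers were mixed in direction. Of 10 tested, 5 were higher and 5 lower, with a median of 0.04, and their summed level was 1021 to 1140 CPM in the AL rats and 1046 to 1406 CPM in the HD rats. Of these, 3 had an unadjusted *P* under 0.05 (background 10.6%), 0 passed the adjusted edgeR threshold and DESeq2 called 2 (background 1.58%). Hsd11b2, which shields the mineralocorticoid receptor from glucocorticoids, was at 0.65 (SE 0.16, edgeR adjusted *P* = 0.390), and the sodium channel subunit Scnn1b was at 0.53 (SE 0.17, edgeR adjusted *P* = 0.406). Fxyd4, a sodium pump regulator of the duct, had 143, 138 and 140.0 CPM in the AL rats and 107, 109 and 96.3 CPM in the HD rats (-0.43, SE 0.10, edgeR adjusted *P* = 0.368). Its part in the values of Aqp4, Aqp3 and Avpr2 was not tested.

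Intercalated cell markers, the background for Aqp6, were summed at 1233 to 1409 CPM in the AL rats and 1173 to 1340 CPM in the HD rats, and 7 of 8 were higher in the HD group (median 0.27), with Slc26a4 at 1.20 and Slc4a1 at -0.56. Proximal tubule markers, the background for Aqp1, Aqp7 and Aqp11, were higher in 6 of 7 (median 0.57). Of these, 3 had an unadjusted *P* under 0.05 with edgeR (Slc4a4 at 1.94, Slc22a6 at 1.07 and Slc34a1 at 0.70). Slc4a4 was low, with at most 5.43 CPM in any rat, and so was Slc5a2, with at most 2.15 CPM. The median was the value of Slc5a2 (SE 0.43), whose groups overlapped, and the abundant Slc7a13 was at 0.04 (SE 0.24). The markers were summed at 10740 to 12420 CPM in the AL rats and 10280 to 15280 CPM in the HD rats. Much of this sum was Slc7a13, an amino acid transporter gene, with 6314 to 7383 CPM in the AL rats and 5012 to 9210 CPM in the HD rats. With it, the sums of the groups overlapped. Without it, the markers ran from 3713 to 5249 CPM in the AL rats and from 5270 to 7079 CPM in the HD rats. That smaller sum was added after the data were seen, and in it HD rat 69 lay just above AL rat 61. Of its larger genes, Slc34a1 and Slc22a6 had groups that did not overlap. The groups overlapped for Lrp2 (0.19, SE 0.16) and Cubn (-0.05, SE 0.14). Podocyte genes were higher in 5 of 5 (median 2.35, with Nphs1 at 2.35, Wt1 at 2.75 and Ptpro at 2.51). Their sums were 47.2 to 115 CPM in the AL rats and 127 to 277 CPM in the HD rats. Much of these sums was Podxl, with 29.4 to 89.4 CPM in the AL rats and 53.05 to 130.0 CPM in the HD rats. The groups overlapped for Podxl (0.33, SE 0.46). Leukocyte genes were lower in 5 of 5 (median -1.22, with Cd3e at -3.45, Ptprc at -1.61 and Csf1r at -1.19), with sums of 30.4 to 85.5 and 20.0 to 32.1 CPM. Cd3e had at most 34 counts in a rat. Endothelial genes were lower in 5 of 6 (median -0.56, with Plvap at -1.99), with overlapping sums of 131 to 393 and 76.6 to 277 CPM.

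Thick ascending limb and distal tubule genes were lower in 3 of 4 (median -0.14, with Slc12a1 at -0.86 and Slc12a3 at 2.93), with overlapping sums of 5345 to 5998 and 3711 to 5870 CPM. Adipocyte genes were higher in 5 of 5 (median 1.33, with Plin1 at 2.67), but the groups overlapped for each gene. Their sums were 171 to 283 CPM in the AL rats and 171 to 413 CPM in the HD rats. The median was the value of Fabp4 (SE 0.99), which in HD rat 64 had 3.06 CPM, below all AL rats. Erythroid genes were higher in 4 of 4 (median 0.73, with Hba2 at 0.85 and Hba1 at 0.72), with sums of 677 to 1028 and 980 to 1773 CPM. Skeletal muscle genes summed to at most 3.39 CPM in any rat. Of the 99 genes tested in all these lists, 0 passed the adjusted edgeR threshold. An unadjusted *P* under 0.05 was seen for 29 (background 10.6%), and DESeq2 called 14 (background 1.58%). The lists were chosen with earlier results of these data known, so nothing is read from these counts. The part of these cell types in the values of the aquaporin genes was not tested.

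Across the 6 rats, the pattern of Aqp4 was compared with that of 11271 other genes by the root mean square difference of log2(CPM + 0.5) after each gene was centred on its own mean. Among the 5 closest were Oas2, an interferon-induced enzyme (0.133), Thbs4, a thrombospondin (0.149), Tnfaip6, a hyaluronan-binding protein (0.156), and Donson, a replication factor (0.157). These 4 genes had at most 4.21 CPM in any rat. Nfat5 was ranked 55 (0.254), Avpr2 168 (0.315), Fxyd4 354 (0.353) and Aqp3 364 (0.355). Aqp2 was ranked 2814 (0.510) and Slc14a2 9594 (0.710). Aqp11 was ranked 10819 (0.931), among the genes least like Aqp4.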

How the data were processed

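Kidney RNA was poly(A)-selected, made into libraries with a TruSeq v2 kit and read as 100-base single reads. The authors quantified transcripts with RSEM 1.1.15 at default settings on the UCSC gene definitions of build rn5. For each rat and transcript, the authors deposited the estimated count (RSEM's expected count), which is not normalized, a posterior mean count, and TPM and FPKM values, which are scaled to length and library size, together with a level and its interval. Estimated counts of 18361 transcripts were summed per gene symbol and rounded, and genes with at least 30 counts in 1 rat were tested with edgeR 4.0.16 (R 4.3.3, TMM factors, quasi-likelihood, diet as the only term), DESeq2 1.42.0 being an alternative. SE was obtained from the fold change and the F statistic. The common biological coefficient of variation was 0.242. TPM was summed per gene to order the levels, and the log2 ratios of neighbours were taken with nothing added. For an alternative diet fold change from TPM, 0.1 was added before logarithms. FPKM entered only as an alternative for that order, and the posterior mean count only as an alternative for the fit. Rats were grouped by their labelled diet. The members, gene lists and named genes (list genes with an unadjusted *P* under 0.05, at most 5 per list, and the 5 genes with at least 1 CPM on average closest to Aqp4) were chosen with earlier results of these data known, and 2 of the genes so named are not reported here. No 2 libraries were alike within sampling noise (chi-square per degree of freedom 24.1 to 81.2). The fit was tested on simulated data with 200 genes, each changed by more than Aqp4 was, so this says nothing of smaller differences. The floors of 3 counts cover counting error only, and the deposited intervals describe the estimate within a rat, not the spread between rats.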

Additional observations from a re-analysis of the deposited data

How the results depend on the processing

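No paired analysis was possible because the rat numbers in the labels are not shared between the groups. Under DESeq2, 182 genes were called, among them 1 of the 10 genes described (Aqp4) and 14 list genes. With no filter on low counts, 2 genes were called in all and 1 of the lists. When each rat was left out in turn, 0 to 4 genes were called in all (4 without rat 64, 2 without rat 61 and 2 without rat 67) and 0 to 1 of the lists (1 without rat 64 or rat 67). The aquaporin and receptor genes with an unadjusted *P* under 0.05 then numbered 2 to 4 (2 without rat 71, rat 88 or rat 67 and 3 without rat 64), and the inner medulla genes 1 to 4 (1 without rat 64, 2 without rat 67 or rat 88 and 3 without rat 61 or rat 71). The order of the levels held in all rats for 9 of 9 pairs in the AL rats alone, 5 in the HD rats alone and 5 to 6 when 1 rat was left out. The sign of the log2 fold change held under every alternative for Aqp1, Aqp3, Aqp4, Aqp5, Aqp7, Aqp11 and Avpr2, with no value for Aqp5 without rat 69, where it failed the count filter, or for Aqp5 and Aqp8 with at least 10 counts required in every rat. It changed for Aqp2 without rat 71 (0.06) or rat 67 (0.03), for Aqp6 without rat 71 (0.08) and for Aqp8 without rat 64 (0.05). Scaling by library size alone moved the median of all genes to -0.07 from 0.0067. With 3 rats a group and a count of at most 69 for Aqp5 and Aqp8, small differences were not detectable.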
